A study of Mus musculus with 3 samples.

Results

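The endoplasmic reticulum (ER) chaperones are the proteins that fold, oxidise and hold newly made secretory and membrane proteins in the ER lumen, and the transcripts of 9 of them were followed here: Hspa5, Hsp90b1, Hyou1, Calr, Canx, P4hb, Pdia3, Pdia4 and Pdia6. They were chosen by name for their role, with earlier results of these data known, and all 9 were found by symbol among the 49997 genes of the count table. The libraries came from E14 mouse embryonic stem cells (ESCs) held on gelatin with serum replacement and leukemia inhibitory factor. Per the study's text the cells carry a doxycycline (Dox)-inducible Dux transgene, whose product turns on genes of the 2-cell embryo, and a tdTomato reporter driven by the MERVL promoter. All 3 libraries were from cells given Dox for 24 h: 1 input library and 2 libraries of RNA co-purified with an antibody against YTHDF2 (RNA immunoprecipitation followed by sequencing, RIP-seq). No library from untreated cells and no IP with a control antibody was analysed here, and the labels do not say whether the 2 IP libraries came from separate cultures, so the p-values below measure only the spread between these 2 samples, which may be technical. The input was a single library and had no replicate error of its own.

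YTHDF2 is a cytoplasmic reader of N6-methyladenosine (m6A), the most common internal base modification of mRNA, and it recruits the CCR4-NOT deadenylase to the transcripts it binds. The comparison of IP with input asks which transcripts were more or less abundant in the YTHDF2-bound fraction than in the starting RNA. mRNAs of secretory and ER proteins carry a signal sequence and are translated at the ER membrane. In the ER, HSPA5 (BiP), an HSP70, binds hydrophobic stretches of nascent chains, and HSP90B1 (GRP94) takes over some of its clients. The lectins calreticulin and calnexin hold glycoproteins that carry a single glucose, and the protein disulfide isomerases (PDIs) form and reshuffle disulfide bonds. The unfolded protein response raises the transcription of many of these genes when folding falls behind.

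Most soluble proteins of the ER lumen end in the residues KDEL or a close variant, which KDEL receptors use to return them from the Golgi. The last 27 coding bases of each member, stop codon included, are shown to set the 8 members with such an end apart from the single membrane protein. They were read 5′ to 3′ on the coding strand from GRCm38.p6 at the RefSeq stop codon, with the last 4 sense codons in capitals. The sequence of Hspa5 is at chr2:34776087-34776113 (plus strand), that of Hsp90b1 at chr10:86691102-86691128 (minus) and that of Hyou1 at chr9:44391024-44391050 (plus). That of Calr is at chr8:84842647-84842673 (minus), that of Canx at chr11:50296282-50296308 (minus) and that of P4hb at chr11:120561183-120561209 (minus). That of Pdia3 is at chr2:121437673-121437699 (plus), that of Pdia4 at chr6:47796488-47796514 (minus) and that of Pdia6 at chr12:17283980-17284006 (plus).
Hspa5: gatacatcagaaAAAGATGAGTTGtag
Hsp90b1: gaatctacagagAAGGATGAATTGtaa
Hyou1: cggccttcaaagAACGATGAACTAtaa
Calr: cctggccaagccAAGGATGAGCTGtag
Canx: agaaacagaaagCCACGAAGAGAGtga
P4hb: cagaaagctgtgAAGGATGAACTGtag
Pdia3: aagaagaaggcaCAAGAGGACCTCtaa
Pdia4: aggagcaggaccAAGGAAGAGCTTtaa
Pdia6: gatgacctggagAAGGATGAGTTGtga

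In 5 of the 9 (Hspa5, Hsp90b1, Calr, P4hb and Pdia6) the capitals spelled KDEL, and in Hyou1, Pdia3 and Pdia4 they spelled a variant of it. Canx, a type I membrane protein with its tail in the cytosol, had none. The paired-cysteine site CGHC, the active site of the PDIs, was found at 2 places in the coding sequence of Pdia3, Pdia6 and P4hb, at 3 in that of Pdia4, and in none of the other members.

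The libraries held 36986994 counts (input), 35259827 (IP replicate 1) and 35888743 (IP replicate 2), each mate of a read pair being counted. After a filter on low counts 19601 genes were tested with edgeR's quasi-likelihood test, with Benjamini-Hochberg adjustment over all of them. A gene was called enriched or depleted in the IP at an adjusted p under 0.05 and a change of more than 2-fold. Of the genes tested, 15% were called enriched (2936) and 13% depleted (2543). At the same adjusted p with no limit on fold, 28.4% were higher and 28.9% lower in the IP, and the median log2 fold change over all genes was 0.0063. Of 10 ESC markers all were detected, at 154 to 5993 TPM in the input (transcript abundance scaled by exonic length and library total). The fibroblast markers Col3a1 and Dcn were at 0 in all 3 libraries, and of 8 such markers only Thy1 was above 1 TPM in the input, at 33.0. Of the primitive endoderm markers, Gata6, Gata4, Sox17 and Sox7 were at or below 2.55 TPM in the input, while Sparc was at 488. The 2C genes Zscan4a, Zscan4c and Zscan4d were at 488 to 897 TPM in the input, and the 8 such markers listed ran from 9.52 to 897.

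All 9 ER chaperone transcripts passed the filter. At an adjusted p under 0.05 and any fold, 7 of the 9 were lower in the IP than in the input. The other 2, Hspa5 and Pdia4, were higher. Among all genes tested 28.9% were lower and 28.4% higher. These any-fold shares were not matched for abundance, and more counts let a smaller change pass. The members lay between the 92.3 and 99.4 percentiles of input TPM. Of the 19601 genes tested, 8384 passed in neither direction. The part of abundance in the contrast was not tested. Past 2-fold, 1 of the 9 was depleted, Canx, and none was enriched, beside 13% and 15% of all genes. The median log2 fold change of the members was −0.89, and the values spanned 2.46 on the log2 scale from Canx to Pdia4. The 2 IP libraries lay on the same side of the input for every member and differed from each other by at most 0.13 on the log2 scale, for Hyou1.

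**Figure D1:**
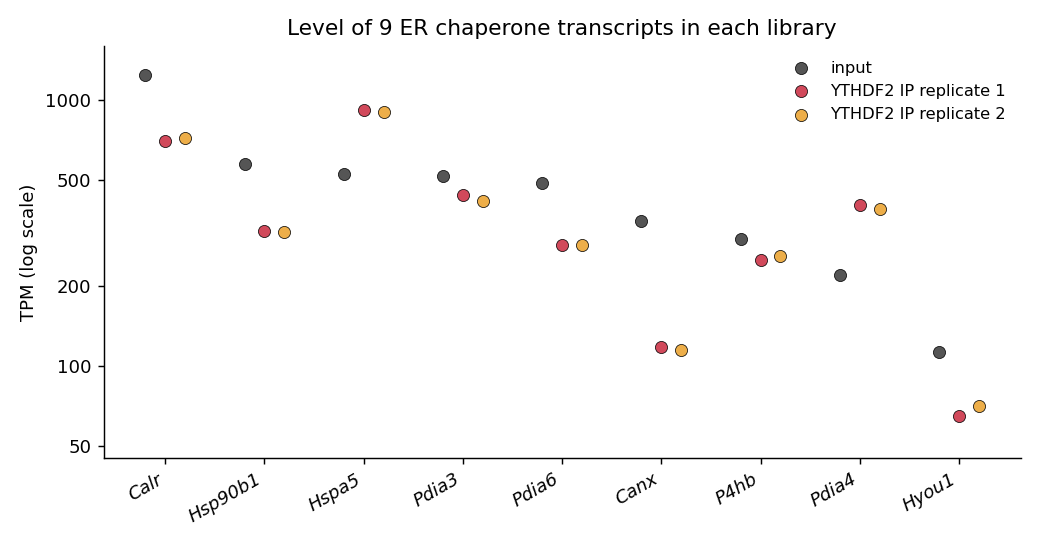
Level in TPM (log scale) of the 9 ER chaperone transcripts in the input and the 2 YTHDF2 IP libraries, 1 point a library, ordered by the input. Hspa5 and Pdia4 lie higher in both IP libraries than in the input, and the other 7 lie lower.

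The HSP70 of the ER and its partners went in different directions. Hspa5 (chr2:34772090-34776529, mm10, plus strand) had an input count of 24070 against 38105 and 38460 in IP replicates 1 and 2. Both IP libraries were above the input, and the fitted log2 fold change was 0.63 ± 0.0491 (SE), which is 1.55-fold higher (adjusted p = 5.22e-14). Hsp90b1 (chr10:86690841-86705444, minus), the ER member of the HSP90 family, had an input count of 27455 against IP counts of 14117 and 14323. Both IP libraries were below the input at a log2 fold change of −0.99 ± 0.0496 (adjusted p = 1.33e-19), a 1.98-fold lower level just short of the 2-fold limit.

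Hyou1 (chr9:44379490-44392369, plus), the HSP110-type nucleotide exchange factor of HSPA5, had an input count of 9371 against IP counts of 4929 and 5474. It was the least abundant member per length in all 3 libraries, and it was 1.85-fold lower in the IP (log2 −0.89 ± 0.0621, adjusted p = 4.56e-15). Within a library, the TPM of Hspa5 was 0.925 times that of Hsp90b1 in the input against 2.85 and 2.83 times in the IP libraries. Hspa5 stood at 4.69 times the TPM of Hyou1 in the input against 14.1 and 12.8 times in the IP libraries, so the transcript of the HSP70 and that of its exchange factor moved apart.

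Of the lectin pair, the membrane-bound member was the lower in the IP, a contrast that nearly closed once the trend with GC content was removed (Canx −1.12, Calr −1.04). Canx (chr11:50293957-50325673, minus), which codes for calnexin, had an input count of 26167 against IP counts of 8001 and 7961. Its IP level was 29.7% of the input, 3.37-fold lower (log2 −1.75 ± 0.0513, adjusted p = 1.44e-26), and 6.32% of all genes tested had a lower log2 fold change. Calr (chr8:84842088-84846931, minus), which codes for the soluble calreticulin, had an input count of 41931 against IP counts of 21716 and 22717, 1.94-fold lower (log2 −0.96 ± 0.0476, adjusted p = 1.09e-19). The ratio of Calr to Canx in TPM was 3.54 in the input against 5.99 and 6.30 in the IP libraries.

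The 4 PDIs were split. Pdia4 (chr6:47796141-47813512, minus), an isomerase with 3 CGHC sites, had an input count of 10094 against IP counts of 17037 and 16791. With Hspa5 it was the other member above the input, at 1.63-fold (log2 0.70 ± 0.0551, adjusted p = 5.49e-14). Pdia6 (chr12:17266589-17284785, plus) had an input count of 18197 against IP counts of 9764 and 9957, 1.90-fold lower (log2 −0.92 ± 0.0525, adjusted p = 5.64e-18). The TPM of Pdia4 was 0.448 times that of Pdia6 in the input against 1.41 and 1.36 times in the IP libraries, so their order turned over.

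The other two PDIs were close to the input. Pdia3 (chr2:121413902-121438687, plus), the isomerase that works with the lectins on glycoproteins, had an input count of 23870 against IP counts of 18568 and 17909, 1.35-fold lower (log2 −0.43 ± 0.0509, adjusted p = 2.7e-09). P4hb (chr11:120560298-120573253, minus), the founding PDI and also a subunit of collagen prolyl 4-hydroxylase, had an input count of 14973 against IP counts of 11369 and 12084, 1.31-fold lower (log2 −0.39 ± 0.0540, adjusted p = 6.28e-08). Their ratio in TPM barely moved: Pdia3 was 1.73 times P4hb in the input against 1.77 and 1.60 times in the IP libraries. With the GC trend removed they stood apart, Pdia3 at −0.08 and P4hb at −0.59.

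**Figure D2:**
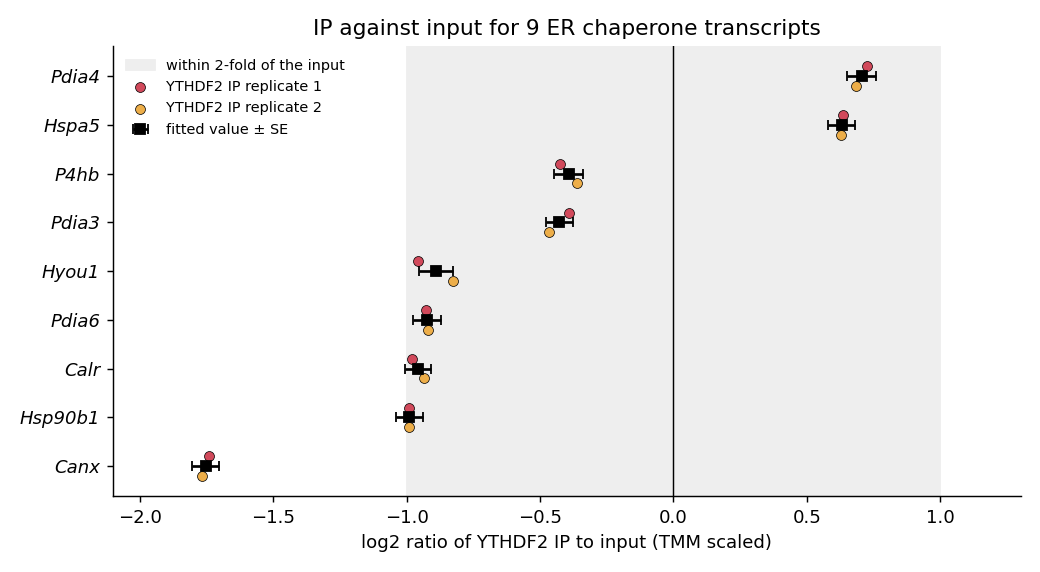
Log2 ratio of each YTHDF2 IP library to the input (points) and fitted log2 fold change with its standard error (squares) for the 9 ER chaperones, after TMM scaling. Canx lies beyond 2-fold at −1.75, while Hspa5 and Pdia4 lie above 0 at 0.63 and 0.70.

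The test rests on the spread between 2 IP libraries, with 1 residual degree of freedom a gene. The fit draws each gene's dispersion toward a trend over all genes tested. The p-values and standard errors therefore rest on that pooling and not on a gene's own 2 libraries alone. When the dispersion was instead fixed at 0.1 (the estimate gave a biological coefficient of variation of 7.33%), Canx alone of the members kept an adjusted p under 0.05, at 0.0131, and the others ranged from 0.204 to 0.676.

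The members also changed order by level. Levels are from cells in bulk, so within a library fewer cells holding a transcript and less of it per cell cannot be told apart. In the input, Calr led at 1241 TPM, followed by Hsp90b1 (572), Hspa5 (529), Pdia3 (519), Pdia6 (488), Canx (351), P4hb (301), Pdia4 (219) and Hyou1 (113). There Hspa5 was 1.88% above Pdia3 and Pdia3 6.51% above Pdia6, both less than the 7.33% coefficient of variation estimated from the IP pair. Neither of these neighbouring pairs is ordered beyond that spread. Hspa5 was 8.51% above Pdia6 and Hsp90b1 8.15% above Hspa5. Because a ratio of 2 genes varies more than 1 gene, these gaps are not taken as an order either. In IP replicates 1 and 2 Hspa5 led at 914 and 904 TPM, followed by Calr at 701 and 719. Next came Pdia3 at 441 and 417, Pdia4 at 403 and 389, Hsp90b1 at 321 and 319, and Pdia6 at 286 and 285. P4hb at 249 and 260, Canx at 117 and 114, and Hyou1 at 64.8 and 70.5 TPM closed the order. It was the same in both IP libraries with no overlap between neighbours. Pdia3 and Pdia4 came closest, at 417 against 403 TPM, and the order in the IP was not tested. The 9 together took 0.530% of all counts in the input (95% Wilson interval 0.528% to 0.533%), 0.407% in IP replicate 1 (0.405% to 0.409%) and 0.406% in IP replicate 2 (0.404% to 0.408%). Only counting error enters these intervals. They take the mates of a pair as independent counts, which makes them too narrow.

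Each ER chaperone with a relative in the cytosol or mitochondria was set beside it. Hspa8, the constitutive cytosolic HSP70, had an input count of 102098 against IP counts of 97044 and 103635 (log2 −0.07 ± 0.0434, adjusted p = 0.206), and did not pass the test. Hspa9, the mitochondrial HSP70, rose by a log2 fold change of 0.36 ± 0.0494 with an input count of 23413 against IP counts of 30826 and 31095. The ratio of Hspa5 to Hspa8 in TPM was 0.19 in the input against 0.316 and 0.298 in the IP libraries, so the ER transcript gained on the cytosolic one.

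In the HSP90 family the ER member kept nearly the same ratio to the main cytosolic one. Hsp90ab1 fell by 0.86 ± 0.0405 on the log2 scale (211079, 115919 and 123271 counts in the input and IP replicates 1 and 2), and the TPM of Hsp90b1 was 0.118 times that of Hsp90ab1 in the input against 0.111 and 0.106 times in the IP libraries. That near-equality ended with the GC trend removed, which put Hsp90b1 at −0.44 and Hsp90ab1 at −0.96. Hsp90aa1, the stress-inducible cytosolic HSP90, was depleted, at −2.11 ± 0.0437 with 108270, 25821 and 25592 counts. Trap1, the mitochondrial HSP90, was at −0.61 ± 0.0595 with 8653, 5751 and 5946 counts.

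The cytosolic HSP110 genes were at values near that of Hyou1 (−0.89): Hspa4 at −0.81 ± 0.0513 with 27777, 15650 and 17020 counts, and Hsph1 at −0.92 ± 0.0706 with 4821, 2606 and 2645 counts. Hspa4l was at −0.67 ± 0.217 with 324, 212 and 207 counts (adjusted p = 0.0081). It is annotated at more than 1 place, which makes its count uncertain, and its value was 0.17 once the trend with GC content was removed. The ratio of Hyou1 to Hspa4 in TPM was 0.328 in the input against 0.306 and 0.313 in the IP libraries, and with the GC trend removed Hyou1 was at −1.12 and Hspa4 at −0.55. Txn1, the cytosolic thioredoxin that shares its fold with the PDIs, was depleted at −1.42 ± 0.0564 with 13849, 5232 and 5390 counts, below all 4 PDIs, a call that ended at the fixed dispersion of 0.1 (adjusted p = 0.0517).

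**Figure D3:**
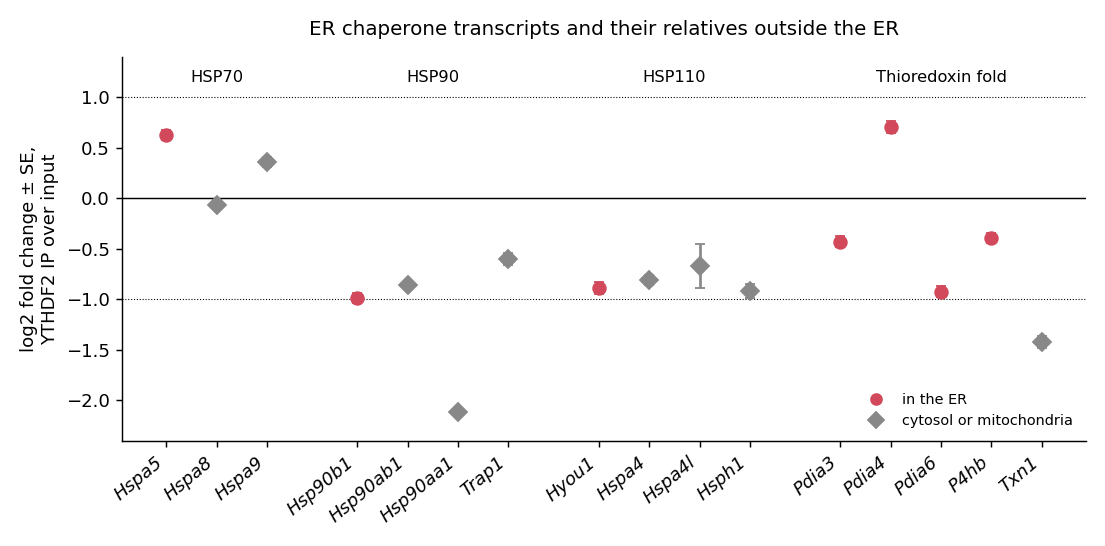
Fitted log2 fold change of YTHDF2 IP over input with its standard error for the ER chaperones (circles) and their relatives outside the ER (diamonds), by family; the dotted lines mark 2-fold. Hspa5 at 0.63 lies above both HSP70 relatives, while Hyou1 at −0.89 lies among the cytosolic HSP110 genes before any GC correction.

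Further genes of the ER folding pathway were taken as 9 lists with 121 genes, of which 119 were tested. Of these, 36 were higher and 63 lower at an adjusted p under 0.05 and any fold, and 20 did not pass. These are 30.3% higher and 52.9% lower, beside 28.4% and 28.9% of all genes tested. The any-fold shares here and for each list below were also not matched for abundance. A mean CPM of 10 or more was reached by 109 of the listed genes, against 9987 of the 19601 tested. Past 2-fold, 14 of the 119 were enriched (11.8%, beside 15%) and 24 depleted (20.2%, beside 13%). The median log2 fold change of the 119 was −0.40 beside 0.0063 for all genes. Scaling to total counts gave 17 enriched and 16 depleted (13.4%, beside 11.1% of all genes under that scaling), and scaling to TPM 18 and 16 (13.4% beside 10.3%). At the fixed dispersion of 0.1, 6 were enriched and 5 depleted (4.2% beside 7.81%). The lists differed from each other in their counts, as given below without a test of the lists.

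The next list held co-chaperones and exchange factors of HSPA5 and GRP94 together with related ER folding proteins. In it 8 of 14 were higher (57.1%, beside 28.4% of all genes) and 4 lower (28.6%, beside 28.9%), with a median of 0.20. Past 2-fold, 2 were enriched (14.3%, beside 15%) and 0 depleted (beside 13%). Cnpy3, which assists GRP94 in folding Toll-like receptors, had the highest value, at 2.07 ± 0.0651 with an input count of 2761 against IP counts of 11946 and 11915. Sec63, the J-domain partner of HSPA5 at the translocon, had the lowest, at −0.88 ± 0.0899 with 2604, 1438 and 1468 counts.

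The further PDI family members and ER oxidases were mostly lower, with a median of −0.63. In all, 12 of 17 fell (70.6%, beside 28.9% of all genes), 6 of them past 2-fold (35.3%, beside 13%). Another 3 rose (17.6%, beside 28.4%). Depleted genes numbered 3 of 17 with total count or TPM scaling, beside 11.1% and 10.3% of all genes. They numbered 1 at the fixed dispersion, beside 7.81%, and 0 with the GC trend removed, beside 10.1%. Ero1a, the oxidase that recharges P4HB, was lowest at −1.46 ± 0.106 with 2082, 739 and 821 counts, and at −0.79, no longer called, with the GC trend removed. Erp29, a PDI relative without an active-site cysteine pair, was highest at 1.94 ± 0.0597 with 4709, 18651 and 18467 counts. Among the other enzymes of the calnexin cycle 5 of 11 fell (45.5%, beside 28.9%) and 3 rose (27.3%, beside 28.4%), with a median of −0.15. Past 2-fold, 3 were depleted (27.3%, beside 13%) and 2 enriched (18.2%, beside 15%). Ganab, the catalytic subunit of glucosidase II that trims glycans for calnexin and calreticulin, was lowest at −1.53 ± 0.0584 with 13443, 4581 and 4961 counts. Edem2, a mannosidase that marks misfolded glycoproteins, was highest among the genes at a mean CPM of 10 or more, at 1.05 ± 0.0783 with 1836, 3859 and 3939 counts, and lost its call with the GC trend removed (0.92) and at the fixed dispersion (adjusted p = 0.218).

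The translocon and signal peptidase list held the most depleted genes of the 9 ER lists, with a median of −0.92. In it 15 of 18 fell (83.3%, beside 28.9% of all genes), 8 of them past 2-fold (44.4%, beside 13%), and 1 rose (5.56%, beside 28.4%). At the fixed dispersion 2 of the 18 were depleted, beside 7.81% of all genes. Sec61a2, a paralogue of the pore subunit, was at −1.99 ± 0.105 with 2583, 704 and 634 counts, and at −1.34, still called, with the GC trend removed. Ssr2, a subunit of the translocon-associated TRAP complex, was the 1 that rose, at 0.21 ± 0.0505 with 19591, 23206 and 23442 counts, and it was at −0.06 with the GC trend removed. In the oligosaccharyltransferase, which attaches N-glycans, 8 of 11 fell (72.7%, beside 28.9%) and 1 rose (9.09%, beside 28.4%), with a median of −0.73. Past 2-fold the oligosaccharyltransferase had 1 depleted gene (9.09%, beside 13%) and 0 enriched (beside 15%). Its lowest gene, Tusc3, was at −1.07 ± 0.120 with 1584, 859 and 696 counts (short of 2-fold at −0.43 with the GC trend removed, −0.97 with total count scaling, and −0.91 with TPM scaling or without IP replicate 2), and its highest, Ostc, at 0.16 ± 0.0684 with 4373, 5210 and 4845 counts (adjusted p = 0.0424). It no longer passed the adjusted p of 0.05 in the DESeq2 Wald test (adjusted p = 0.161), without IP replicate 1 (0.360) and at the fixed dispersion (0.883).

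For ER-associated degradation, which extracts misfolded proteins to the proteasome, 10 of 15 rose (66.7%, beside 28.4% of all genes) and 3 fell (20%, beside 28.9%). Its median was 0.49, but past 2-fold only 1 was enriched (6.67%, beside 15%) and 0 were depleted (beside 13%). Faf2, an adaptor that brings the p97 segregase to the ER membrane, was at 1.02 ± 0.0674 with 3335, 7070 and 6796 counts (0.98, short of 2-fold, without IP replicate 1), and Selenos, a selenoprotein of the same machinery, at −0.70 ± 0.124 with 1114, 745 and 668 counts.

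Of the sensors and factors of the unfolded protein response, 6 of 13 rose (46.2%, beside 28.4%) and 5 fell (38.5%, beside 28.9%), with a median of −0.03. Past 2-fold, 4 were enriched (30.8%, beside 15% of all genes) and 2 depleted (15.4%, beside 13%). The 4 enriched genes, named after their values were seen except for Trib3, were Ppp1r15b (1.07), Ppp1r15a (1.68), Ddit3 (1.72) and Trib3 (2.10). Ddit3 codes for the transcription factor CHOP, and Ppp1r15a and Ppp1r15b code for subunits of the phosphatase that removes the phosphate from eIF2alpha. Ppp1r15b was not called with the dispersion fixed at 0.1 (adjusted p = 0.202). Of the 2 other genes on the list that act with them, Eif2ak3, which codes for the eIF2alpha kinase PERK, was at −0.03 ± 0.0876 (adjusted p = 0.777), and Atf4, a transcription factor made when eIF2alpha is phosphorylated, at 0.97 ± 0.0582, higher but short of 2-fold. Trib3, at 2.10 ± 0.108, had an input count of 551 against IP counts of 2446 and 2424. Mbtps2, the site-2 protease that releases ATF6, was lowest at −1.62 ± 0.136 with 1147, 397 and 371 counts, and at −0.82, no longer called, with the GC trend removed.

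Of the 3 KDEL receptors, 1 rose (33.3%, beside 28.4% of all genes) and 2 fell (66.7%, beside 28.9%). Kdelr3 was at 1.01 ± 0.138 with 515, 1160 and 969 counts. Its value was short of 2-fold at 0.89 with the GC trend removed and 0.86 without IP replicate 1. Kdelr2 was lowest at −0.72 ± 0.0750 with 3718, 2283 and 2357 counts. In the list of collagen and prolyl folding factors 9 of 17 fell (52.9%, beside 28.9%) and 3 rose (17.6%, beside 28.4%), with a median of −0.43. Past 2-fold the list had 4 depleted genes (23.5%, beside 13%) and 1 enriched (5.88%, beside 15%). Among its genes at a mean CPM of 10 or more, it ran from P4ha2, a catalytic partner of P4HB in prolyl 4-hydroxylase, at 0.81 ± 0.0884 with 1577, 2677 and 3019 counts, down to Fkbp9, a prolyl isomerase, at −1.25 ± 0.0633 with 8751, 3614 and 3978 counts.

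Chaperones outside the ER, 34 genes of the cytosol and mitochondria, had a median of −0.81, beside the −0.89 of the ER chaperones. With the GC trend removed the medians were −0.77 and −0.59, so their order turned. Their any-fold shares were not matched for abundance either, as 32 of the 34 had a mean CPM of 10 or more. Of the 34 genes 27 fell (79.4%, beside 28.9% of all genes), 10 of them past 2-fold (29.4% beside 13%), and 4 rose (11.8% beside 28.4%). The 10 became 6 with total count scaling (beside 11.1% of all genes under that setting) and 5 with TPM scaling (beside 10.3%). They became 3 at the fixed dispersion (beside 7.81%) and stayed at 10 with the GC trend removed (beside 10.1%). Bag3, a co-chaperone of HSP70 in selective autophagy, was highest at 1.42 ± 0.0669 with 2896, 7880 and 8022 counts, and Hsp90aa1 was lowest.

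**Figure D4:**
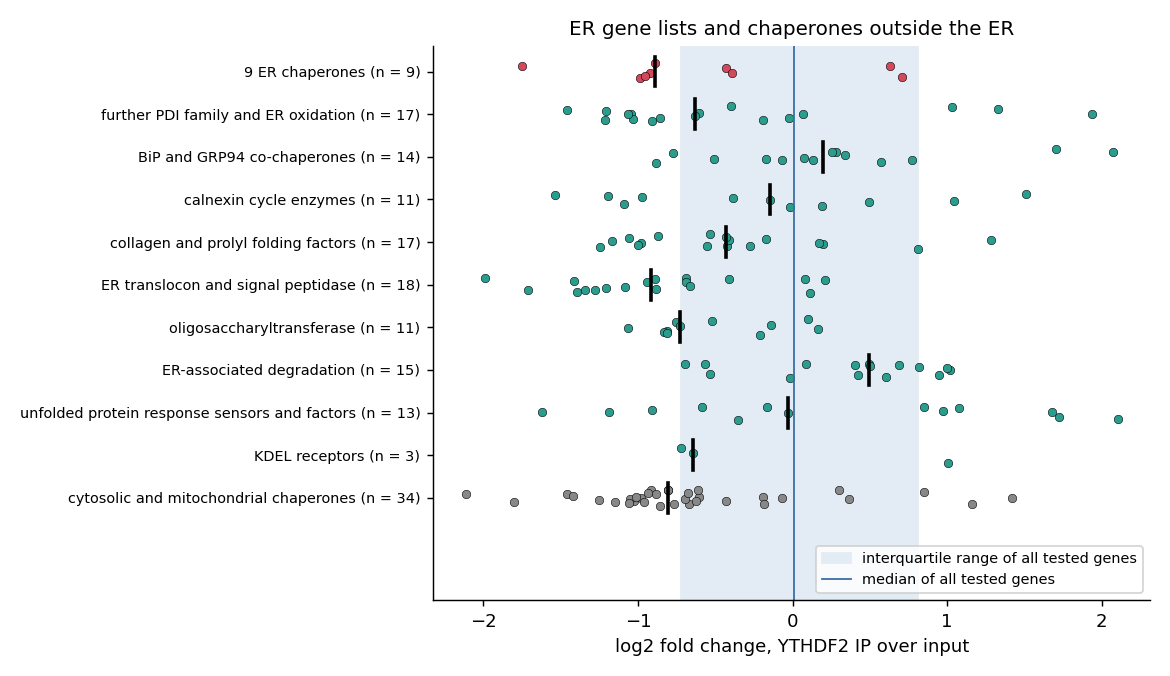
Fitted log2 fold change of YTHDF2 IP over input for the tested genes of each list, 1 point a gene (jittered vertically), with the list median as a black bar. The band spans the interquartile range of all 19601 tested genes (−0.72 to 0.81) and the line their median; the medians run from −0.92 for the translocon and signal peptidase to 0.49 for ER-associated degradation.

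Features that did not enter the choice of members were mixed, apart from exon number. Each member had more exons than the median of 7 over all genes tested, with a median of 13. Their median exonic length was 2655 bases beside 3200, and 2 of the 9 lay above that. Exonic GC content had a median of 48.1% beside 49.7%, with 3 of the 9 above it, from 42.1% in Canx to 54.9% in Hyou1. The letters GGACT, a form of the m6A consensus, were counted on the transcript strand only and occurred at a median of 1.05 per kb of exon beside 1.01 over all genes tested, with 5 of the 9 above it, from 0.362 in Hsp90b1 to 2.06 in Calr. A match is a description of the letters and not a modified site. Over the 9 members, Spearman's rho with the log2 fold change was −0.538 for exon number, 0.433 for GC content, 0.433 for GGACT and −0.117 for length, and the 9 points share their libraries.

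Across all genes the IP-to-input ratio rose with GC content: a smooth trend (loess), taken relative to its median over all genes, stood at a log2 of −0.63 at the GC content of Canx and 0.23 at that of Hyou1. The members were read against that trend. Canx, with the lowest GC content of the 9, was at −1.12 with the trend removed, Hsp90b1 at −0.44 and Pdia3 at −0.08 (adjusted p = 0.174). Those of higher GC content moved the other way, Hyou1 to −1.12, Calr to −1.04 and P4hb to −0.59. Hspa5 and Pdia4 stayed above 0, at 0.84 and 0.82, and Pdia6 was at −0.78. With the trend removed 3 of the 9 were past 2-fold lower (Canx, Calr and Hyou1) in place of 1, beside 10.1% of all genes in place of 13%. The part of GC content in these differences was not tested.

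**Figure D5:**
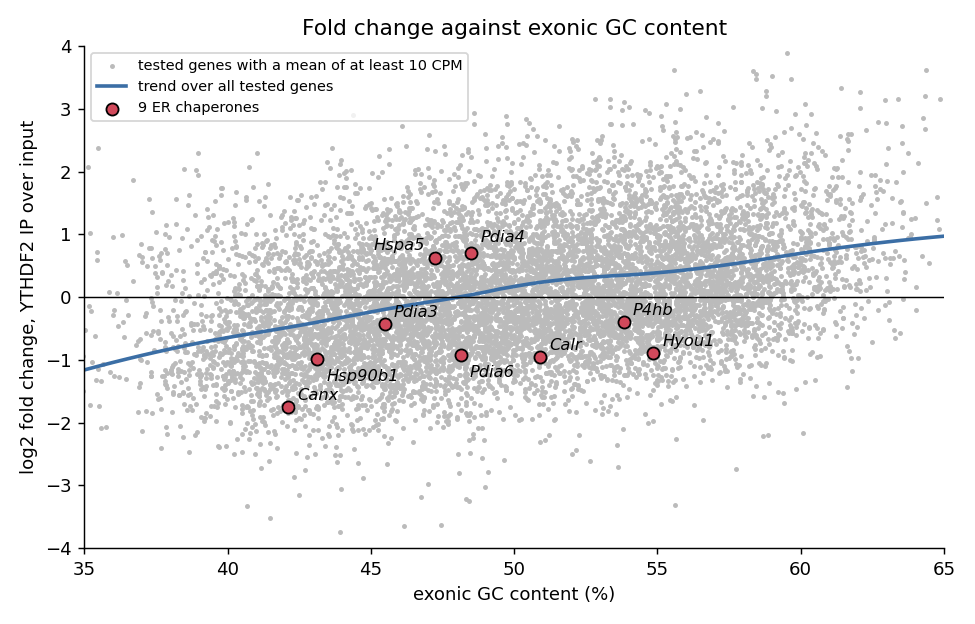
Fitted log2 fold change of YTHDF2 IP over input against exonic GC content (%) for tested genes at a mean CPM of 10 or more (grey; axes cropped), the trend over all tested genes before centring (line) and the 9 ER chaperones. Hspa5 and Pdia4 lie above the line and the other 7 below it.

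Reads were counted without regard to strand and those in exons of several genes were left out, which touches 4 members. Hspa5 shares 164 exonic bases (6.27% of its exons) with Rabepk, Pdia3 shares 226 (8.55%) with Catsper2 and Pdia6 shares 65 (3.03%) with Atp6v1c2, each on the opposite strand. Pdia4 shares 14 bases (0.527%) with Mir704 on its own strand. All 9 members have 1 locus in the annotation.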

How the data were processed

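RIP-seq with an antibody against YTHDF2 was deposited as 1 table of gene counts for 3 libraries, 1 input and 2 IP. Per the submitters' processing notes reads were trimmed with fastp 0.19.4 and aligned to mm10 with HISAT2 2.2.1, and DESeq2 1.40.2 was named. Per the file headers the authors counted reads over RefSeq exons with featureCounts 2.0.3 in paired-end mode but per mate and without strand, although the kit marks strand, so a pair adds up to 2 counts. The labels describe an IP on Trizol-purified RNA and the methods an IP from cell lysate; the study's text calls the comparator total RNA, and which of the 2 descriptions holds for these libraries is not settled here.

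Counts were tested with edgeR 4.0.16 in R 4.3.3 (filterByExpr, TMM, robust quasi-likelihood fit, Benjamini-Hochberg over all genes tested). TPM from exonic lengths was computed from the same counts. The script was tested on simulated data. A count of 0 allows up to 3 counts, or 0.0811 to 0.0851 CPM. The alternatives were other scalings, no low-count filter, the Wald test of DESeq2 1.42.0, a fixed dispersion, halved counts, a GC correction (loess), no mitochondrial genes and each IP library left out. A fit without the robust option was chosen after seeing the data. The members and lists were chosen with earlier results of these data known. Named were all members, their relatives outside the ER, and from each further list the genes with the highest and lowest log2 fold change among those with a mean CPM of 10 or more. Outside that rule, Ddit3, Ppp1r15a, Ppp1r15b, Eif2ak3 and Atf4 were named after their values were seen.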

Additional observations from a re-analysis of the deposited data

How the results depend on the processing

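All 9 members kept the direction of their log2 fold change under the 12 alternatives run. The count of depleted members stayed at 1 except with the GC trend removed, which gave 3 (beside 10.1% of all genes under that setting). That of enriched members stayed at 0. The member median was −0.79 with total count scaling, −0.74 with TPM scaling and −0.59 with the GC trend removed, and −0.93 to −0.83 with 1 IP library left out. The median of the further ER genes was −0.30, −0.25 and −0.23 under the same 3, −0.36 without the filter, −0.39 with DESeq2's size factors or its Wald test, and −0.33 with either IP library left out. That of the chaperones outside the ER was −0.71 and −0.66 with total count and TPM scaling, and −0.77 with the GC trend removed. TPM scaling moved the median of all genes by 0.150 and gave 3558 enriched and 2010 depleted genes, beside 2936 and 2543. Fixing the dispersion at 0.1 left 1577 genes enriched (8.05% of all) and 1531 depleted (7.81%). It gave 6 enriched and 5 depleted further ER genes (14 and 24 in the report), and 0 and 3 chaperones outside the ER (2 and 10). The chaperones outside the ER had 6 depleted with total count scaling and 5 with TPM scaling, beside 11.1% and 10.3% of all genes. With the GC trend removed, 15 further ER genes were depleted (12.6%, beside 10.1% of all genes) and 1 chaperone outside the ER was enriched. Hspa4l turned to 0.17 and Ssr2 to −0.061 with the GC trend removed; of the 504 values of 42 named genes, 475 kept their call and direction. Hspa8 and Eif2ak3, which did not pass the test, lay on either side of 0 depending on the scaling, and Atf4 passed 2-fold with total count and TPM scaling. Calls on Txn1, Edem2, Fkbp9, Tusc3, Faf2, Kdelr3, Bag3 and Ppp1r15b ended at the fixed dispersion. Beyond the alternatives' own construction, the cause was not tested. No paired analysis was possible because only the IP libraries, and not the input, carry replicate numbers. With 1 input library, its own spread could not be measured.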
